A study of Mus musculus with 12 samples.

Results

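The genes described here are 10 components of the inflammasome and pyroptosis machinery, counted in the oesophageal epithelium of mice with active IKKβ, with Stat3 loss or with both. They were taken by symbol from the 23337 genes of the count files, and all 10 were found: the sensor genes Nlrp3, Nlrp10 and Aim2, the adaptor gene Pycard, the caspase genes Casp1, Casp4, Casp8 and Casp14, and the gasdermin genes Gsdmd and Gsdma. Of these, 9 passed the filter on low counts that 14134 genes passed, and Nlrp3 did not.

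Inflammasomes are cytosolic complexes in which a sensor of microbial or danger signals recruits the adaptor ASC, the product of Pycard, which in turn gathers and activates caspase-1. Active caspase-1 matures interleukin-1β and interleukin-18 and cleaves gasdermin D, whose freed fragment forms pores in the plasma membrane. Mouse caspase-4, also known as caspase-11, binds bacterial lipopolysaccharide inside the cell and cleaves gasdermin D without a sensor, the non-canonical route. Caspase-8 starts death-receptor apoptosis and restrains necroptosis, while caspase-14 and gasdermin A belong to differentiated squamous cells.

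RNA came from epithelium that had been separated mechanically from the stroma of C57BL/6 mice aged 6 weeks, in 4 genotype groups of 3 libraries each. Control mice carried ROSA26-StopFL-Ikk2ca+/L and Stat3L/L but no Cre, so the active IKK2 allele stayed silent and Stat3 stayed whole. The active IKKβ group was ED/L2-Cre+ with ROSA26-StopFL-Ikk2ca+/L, the Stat3 loss group was ED/L2-Cre+ with Stat3L/L, and the combined group was ED/L2-Cre+ with both alleles. The ED/L2 promoter of Epstein-Barr virus restricts Cre to epithelial cells, so leukocytes and stroma left in the tissue keep unrecombined alleles. Cre was present in every group except Control. The labels do not say that libraries of a group are separate animals. Xist, a transcript of female cells, was high only in replicate 1 of each group. That library therefore did not come from the same animal as replicates 2 and 3, which may share one. The p-values measure only the spread between these libraries, part of which may be technical.

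Libraries held 14.8 to 30.2 M counts. Krt4 and Krt13, keratins of the suprabasal oesophagus, made up 4.05 to 6.62% of counts in 6 libraries and 10.4 to 13.9% in the other 6. The second range held 1 Control, 2 active IKKβ, 1 Stat3 loss and 2 combined libraries. Gastric markers summed to 1709 CPM (counts per 1 M of the TMM-adjusted total) in active IKKβ replicate 1 and 113.3 CPM in Stat3 loss replicate 3, against 0.92 to 18.9 elsewhere. Xist stood at 924 to 1540 CPM in replicate 1 of every group and at most 1.46 in the other libraries. Whole-gene counts cannot show excision of floxed Stat3 exons, and Stat3 differed by -0.24 ± 0.11 on the log2 scale between libraries with and without its loss (edgeR adjusted p = 0.391). Ikbkb, the gene symbol of IKKβ, was higher by 0.43 ± 0.10 with the active allele and Cre (edgeR adjusted p = 0.0373). Counts per symbol cannot separate endogenous transcripts from any reads of the active allele that map to this gene.

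Casp4 lies beside Casp1 on chromosome 9 of mm10, on the same strand, with 1562 bases between the end of Casp1 (5298517 to 5307265) and the start of Casp4 (5308828 to 5336783). Casp12 follows after a further 8646 bases. RefSeq promoters on GRCm38.p6, each 250 bases before to 50 bases after a start site, were held for 7 of the 10 genes. Gsdmd, Gsdma and Nlrp10 had no promoter there and were not searched for any motif. The neighbours Casp4 and Casp1 are shown because Casp4 rose with active IKKβ while Casp1 was not called. Capitals mark matches to the kappaB decamer, the letters that NF-κB dimers bind, on either strand.
Casp4, chr9:5308599-5308898, + strand: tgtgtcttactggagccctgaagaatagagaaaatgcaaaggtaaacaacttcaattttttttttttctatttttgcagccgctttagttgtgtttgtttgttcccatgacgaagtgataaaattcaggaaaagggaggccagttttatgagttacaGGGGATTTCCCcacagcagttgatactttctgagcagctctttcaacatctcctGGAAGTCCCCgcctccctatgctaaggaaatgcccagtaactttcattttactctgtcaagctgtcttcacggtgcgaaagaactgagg
Casp1, chr9:5298267-5298566, + strand: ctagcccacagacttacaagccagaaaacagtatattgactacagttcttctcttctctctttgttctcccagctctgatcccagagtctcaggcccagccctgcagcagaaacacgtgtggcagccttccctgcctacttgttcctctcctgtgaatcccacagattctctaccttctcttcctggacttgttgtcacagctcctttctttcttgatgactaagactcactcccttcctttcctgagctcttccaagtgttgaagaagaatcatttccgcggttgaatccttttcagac

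The Casp4 promoter held 3 matches: GGGGATTTCC at position -93 from the start site, GGGATTTCCC at -92, which overlaps it, and GGAAGTCCCC at -39, whose kappaB letters lie on the minus strand. The second RefSeq start of Casp4 lies so close that its window holds the same matches. Casp1 held none in this window. Among the other members searched, only 1 of the 2 Nlrp3 start sites had a match, GGGAACCCCC at -186 (window chr11:59541319-59541618). Of 32851 mouse promoters of the same length, 8.46% held at least 1 kappaB match and 0.521% held at least 2 that do not overlap. The STAT palindrome TTCNNNGAA, the tandem IRF element and the TATA box TATAAA were searched on both strands too. None of them matched in the member promoters searched, which leave out Gsdmd, Gsdma and Nlrp10, against 8.3%, 3.44% and 13.6% of all promoters. A match describes letters in the window and does not show that a factor binds there.

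Casp4 and Gsdmd were the members called higher with active IKKβ, and no member was called lower in any comparison. Casp4 was called in active IKKβ against Control, in the combined group against Control and in the combined group against Stat3 loss. Gsdmd was called only when the active IKKβ effect was averaged over both Stat3 backgrounds. A call is an edgeR quasi-likelihood test with a Benjamini-Hochberg adjusted p below 0.05 over all tested genes. With active IKKβ against Control, 1 of 9 tested members was called higher, where 0.899% of all genes were called higher and 0.0566% lower. For the combined group the count was 1 of 9 against Control (0.566% of all genes, with 0.318% called lower) and 1 of 9 against Stat3 loss (0.41%, with 0.0495% called lower). For the averaged effect it was 2 of 9, against 2.12% of all genes called higher and 0.594% called lower. DESeq2 called the same number of members higher in each of these, from a larger share of all genes: 2.29% higher and 0.844% lower for active IKKβ against Control, 1.67% and 1.7% for combined against Control, 1.38% and 0.731% for combined against Stat3 loss, and 3.8% and 2.31% for the averaged effect. The median log2 fold change of the 9 was 0.66 for active IKKβ against Control, with 0.0048 over all genes tested, and 0.63 for the averaged effect, with 7e-04 over all genes. The first median is the value of Casp14 (edgeR adjusted p = 0.64) and the second that of Nlrp10 (edgeR adjusted p = 0.70). Neither gene was called, and both differed without overlap between libraries of low and high Krt4 and Krt13 share. That share was unevenly spread over the groups, and these medians take no account of it. Comparisons that share the Control or active IKKβ libraries are not independent of each other. Members were chosen with earlier results of these data known, so the shares called describe this list and are not a test of it.

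**Figure D1:**
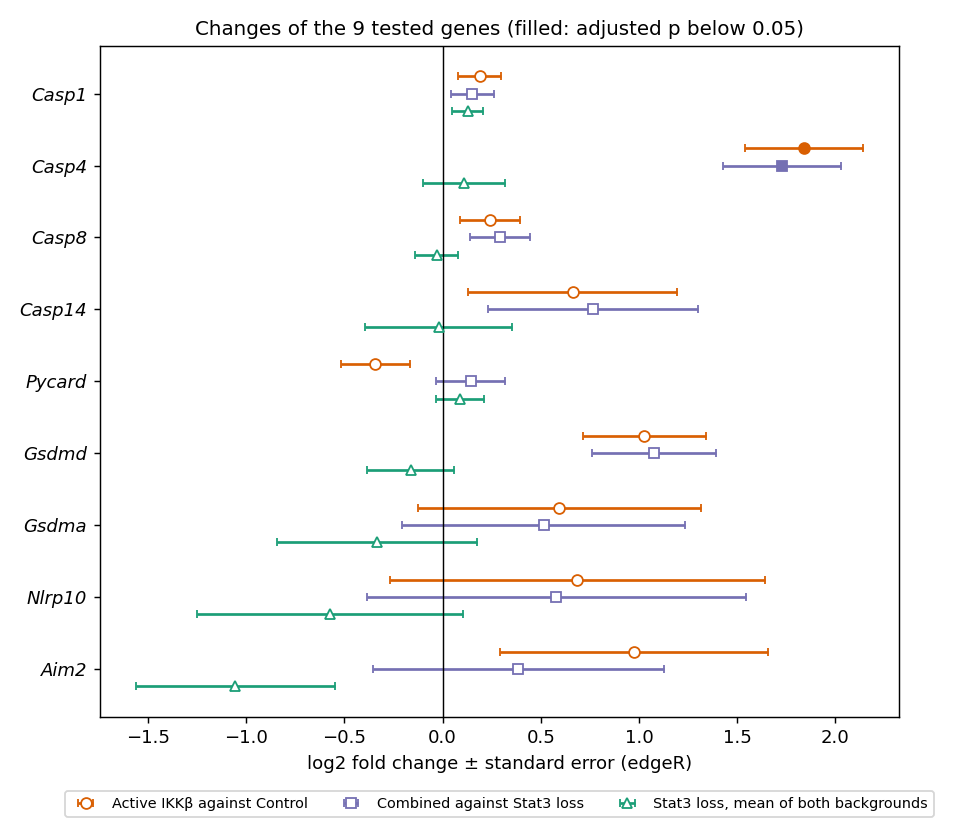
Log2 fold changes of the 9 tested genes from the edgeR fit (x axis), with bars of 1 standard error. Circles are active IKKβ against Control, squares the combined group against Stat3 loss and triangles the averaged effect of Stat3 loss. Filled symbols have an adjusted p below 0.05, which only Casp4 reached, at 1.84 and 1.73.

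Casp4 encodes the intracellular lipopolysaccharide receptor of the non-canonical route. Its level was 7.44, 6.795 and 3.24 CPM in the Control libraries and 23.6, 18.7 and 19.9 CPM in those with active IKKβ. Stat3 loss libraries held 6.94, 5.755 and 6.82 CPM, and combined libraries 14.8, 25.8 and 24.0. The 6 libraries that combine Cre with the active allele were all above the other 6, at 21.2 ± 4.09 CPM (SD, n = 6) against 6.16 ± 1.53 (SD, n = 6).

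Casp4 rose by 1.84 ± 0.30 on the log2 scale, or 3.58-fold, with active IKKβ against Control (edgeR adjusted p = 0.0176; DESeq2 adjusted p = 7.58e-07). The rise within the Stat3-deficient background, combined against Stat3 loss, was 1.73 ± 0.30 (edgeR adjusted p = 0.0387), and the combined group stood 1.89 ± 0.30 above Control (edgeR adjusted p = 0.0153). Both rises together gave an averaged effect of 1.78 ± 0.21, or 3.44-fold (edgeR adjusted p = 0.00112). An exact two-sided permutation of libraries within each Stat3 background gave p = 0.005, the smallest value its 400 arrangements allow. The 2 rises did not pass a test of their difference, which was -0.11 ± 0.41 (edgeR adjusted p = 1).

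The averaged Casp4 call held when any 1 library was left out (1.63 to 1.89, edgeR adjusted p = 8.34e-04 to 0.00641) and at library totals without TMM (edgeR adjusted p = 0.0104). Single comparisons were less firm. Active IKKβ against Control lost the call without Control replicate 2, active IKKβ replicate 1 or active IKKβ replicate 3 (edgeR adjusted p = 0.0604, 0.0513 and 0.0566), combined against Control without Control replicate 2 or combined replicate 3 (edgeR adjusted p = 0.0596 and 0.0675), and combined against Stat3 loss in 9 of 12 such fits (edgeR adjusted p = 0.0078 to 0.210 over the 12). All 3 single calls were lost at library totals without TMM (edgeR adjusted p = 0.106, 0.103 and 0.213), and those against Control for active IKKβ and against Stat3 loss also without both libraries rich in gastric transcripts (edgeR adjusted p = 0.0674 and 0.129).

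**Figure D2:**
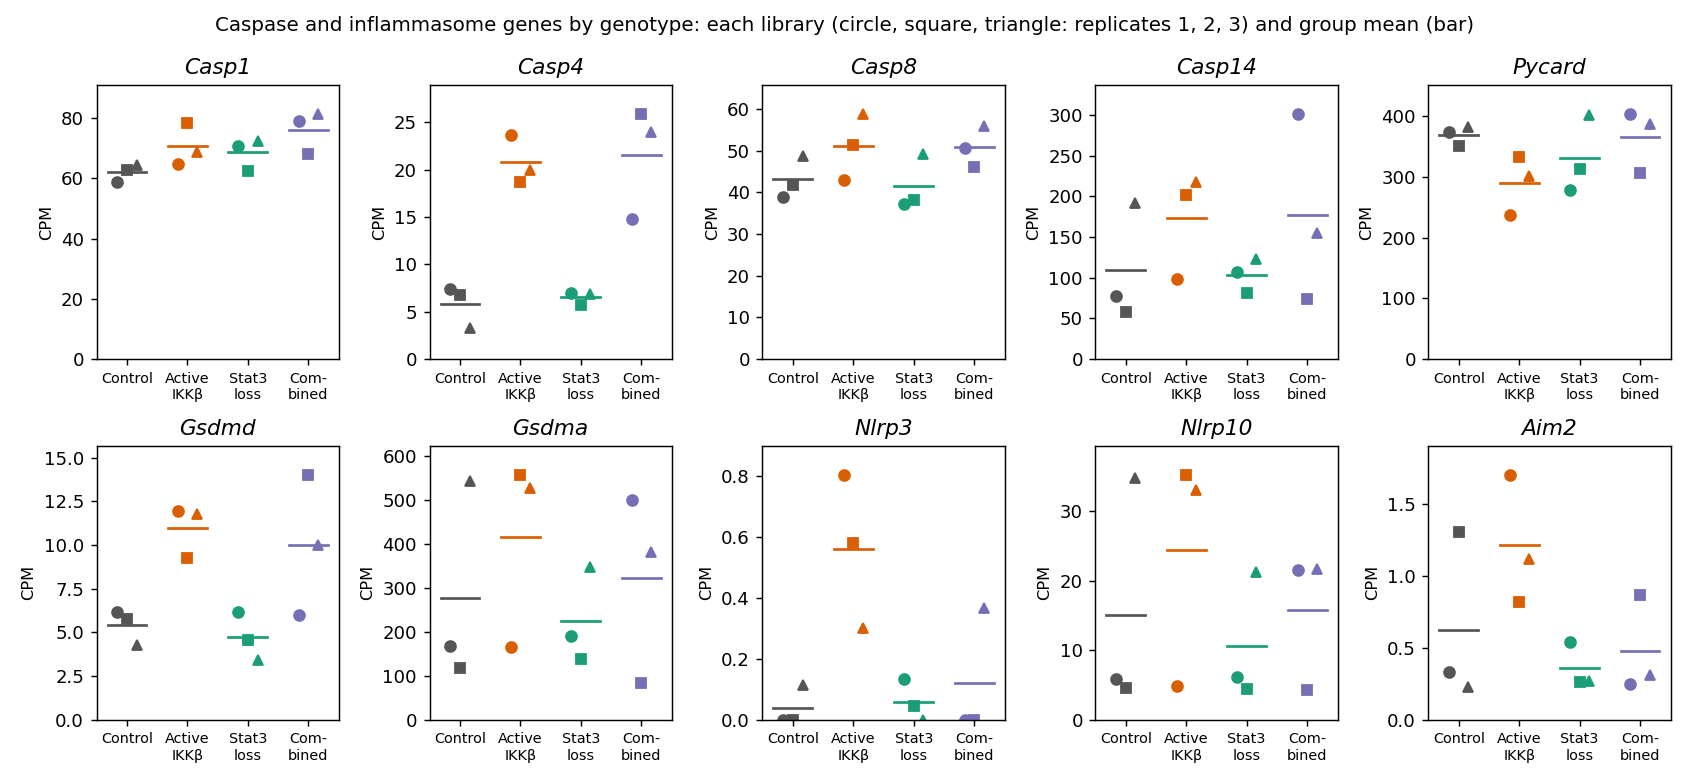
CPM of each of the 10 genes (y axis, linear from 0) in the 12 libraries, by genotype group on the x axis, with 1 point per library and a bar at the group mean. Casp4 is at 14.8 to 25.8 CPM in the 6 libraries with the active allele and Cre and at 3.24 to 7.44 CPM in the other 6.

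Casp1, the canonical inflammasome protease, had a higher level per transcript length than Casp4 in every group, and its differences between groups were small and not called. It measured 58.9, 62.7 and 64.5 CPM in Control libraries and 64.9, 78.4 and 68.7 in active IKKβ libraries, with 70.8, 62.6 and 72.5 under Stat3 loss and 79.1, 68.2 and 81.3 for combined libraries. The lowest active IKKβ library lay just above the highest Control library. The averaged active IKKβ effect was 0.17 ± 0.08 and was not called (edgeR adjusted p = 0.320; exact permutation p = 0.035). The combined group stood 0.30 ± 0.11 above Control without overlap, and this was not called either (edgeR adjusted p = 0.301).

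Casp8 encodes the initiator caspase of death receptors and lies on chromosome 1, 58795374 to 58847503, where it overlaps Gm37760 on the same strand. It measured 39.0, 41.8 and 48.7 CPM in Control libraries and 43.0, 51.45 and 58.7 in active IKKβ libraries. Stat3 loss libraries held 37.1, 38.3 and 49.1 CPM, and combined libraries 50.6, 46.2 and 55.9. Groups overlapped in each background. Its averaged active IKKβ effect of 0.27 ± 0.11 was not called (edgeR adjusted p = 0.260; exact permutation p = 0.035).

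Gsdmd encodes gasdermin D, the pore-forming substrate that caspase-1 and caspase-4 share, and lies on chromosome 15, 75862327 to 75867408. It measured 6.15, 5.75 and 4.31 CPM in Control libraries and 11.96, 9.24 and 11.8 in active IKKβ libraries. Stat3 loss libraries held 6.17, 4.57 and 3.44 CPM, and combined libraries 6.01, 14 and 9.997. The active IKKβ libraries lay above every Control library, while combined replicate 1 fell among the Control and Stat3 loss values.

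Gsdmd stood 1.03 ± 0.31 above Control with active IKKβ (edgeR adjusted p = 0.211) and 1.08 ± 0.32 above Stat3 loss in the combined group (edgeR adjusted p = 0.267), and neither was called. Averaged over both backgrounds it rose by 1.05 ± 0.22, or 2.07-fold (edgeR adjusted p = 0.0311; exact permutation p = 0.01; DESeq2 adjusted p = 4.05e-04). Libraries with the active allele and Cre held 10.5 ± 2.76 CPM (SD, n = 6), against 5.06 ± 1.127 (SD, n = 6) in the rest. The averaged call was lost in 10 of 12 fits that left out 1 library, with a range of 0.89 to 1.18 (edgeR adjusted p = 0.0120 to 0.0902), and at library totals without TMM (0.99, edgeR adjusted p = 0.176).

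Dendritic and Langerhans markers were called higher in the averaged active IKKβ effect, and the tested markers of other immune cells were not. In bulk RNA more cells of a type and more RNA per cell cannot be told apart. The pan-leukocyte list of 5 genes summed to 14.5 to 33.5 CPM in Control, 50.7 to 69.8 under active IKKβ, 6.27 to 19.6 under Stat3 loss and 15.0 to 47.3 in combined libraries. None of its 5 genes was called in the averaged effect (median 1.21). Dendritic and Langerhans markers summed to 116.1 to 293.3 CPM in Control, 583.9 to 724.6 under active IKKβ, 80.45 to 175.8 under Stat3 loss and 177.7 to 538.4 in combined libraries. Their 7 genes were Itgax, Cd207, Flt3, Cd74, H2-Ab1, H2-Aa and Zbtb46. Of these, 6 were tested and all 6 were called higher in the averaged effect, with a median of 1.96. Cd74, H2-Ab1 and H2-Aa are genes of MHC class II presentation, and which cells held their transcripts was not tested. In active IKKβ against Control 2 of the 6 were called higher. In the combined group 0 of the 6 were called, against Control or against Stat3 loss. Of 8 macrophage and monocyte markers none was called in any contrast, with a median of 0.11 in the averaged effect, -0.18 in the combined group against Control and -0.14 against Stat3 loss. Their sums were 51.4 to 111.7 CPM in Control, 104.8 to 135.3 under active IKKβ, 33.6 to 103.3 under Stat3 loss and 43.95 to 91.6 in combined libraries. Of 8 neutrophil markers 7 were in the files and 1 was tested (0.36 in the averaged effect, not called), and Elane was at 0 in all libraries. Neutrophil sums were 5.80 to 21.2 CPM in Control, 4.30 to 29.5 under active IKKβ, 3.15 to 13.1 under Stat3 loss and 2.27 to 12.6 in combined libraries. Of 7 T and NK markers 6 were in the files and 3 tested, with a median of 2.08 and none called. Their sums were 0.95 to 3.55 CPM in Control, 2.41 to 6.38 under active IKKβ, 0.327 to 0.703 under Stat3 loss and 0.851 to 2.32 in combined libraries.

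Combined replicate 1 held only 15.0 CPM of pan-leukocyte and 177.7 CPM of dendritic markers, both inside the Control range. Its Casp4 level of 14.8 CPM was above every Control library, while its Gsdmd level of 6.01 CPM lay inside the Control range. Both levels were the lowest among the 6 libraries with the active allele and Cre. Mean log2 CPM of dendritic markers correlated with Casp4 at 0.861 over the 12 libraries (0.687 within groups). With Gsdmd it correlated at 0.934 (0.861 within groups). For pan-leukocyte markers the correlations were 0.681 with Casp4 (0.427 within groups) and 0.865 with Gsdmd (0.765 within groups). Combined replicate 1 was singled out after its values were seen, and the part of immune cells in the Casp4 and Gsdmd results was not tested.

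**Figure D3:**
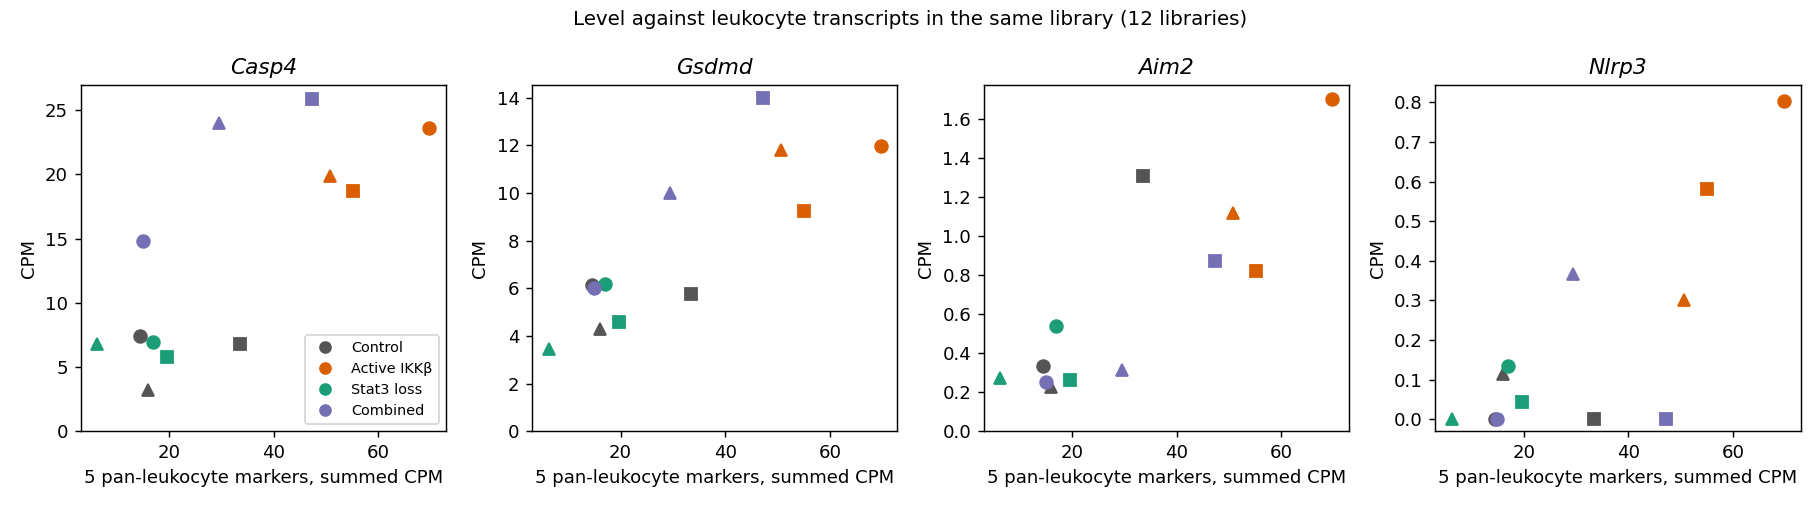
CPM of Casp4, Gsdmd, Aim2 and Nlrp3 (y axes) against the summed CPM of 5 pan-leukocyte markers (x axes) in the 12 libraries. Colours are genotype groups, and circles, squares and triangles are replicates 1, 2 and 3. Combined replicate 1 lies among the Control libraries in pan-leukocyte markers (15.0 CPM), above them in Casp4 (14.8 CPM) and among them in Gsdmd (6.01 CPM). In both genes it is the lowest of the 6 libraries with the active allele and Cre.

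Pycard encodes ASC, the adaptor that links sensors to caspase-1. It lies on chromosome 7, 127989708 to 127993867, minus strand, mm10. Its level was 373, 350.3 and 381.7 CPM in Control. With active IKKβ it measured 237.4, 333.1 and 300.7 CPM, all below Control. Stat3 loss libraries held 278.2, 313.4 and 400.9 CPM and combined libraries 402.8, 305.9 and 386.9, both overlapping Control.

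The Pycard difference for active IKKβ against Control was -0.34 ± 0.18 and was not called (edgeR adjusted p = 0.438). In the combined group against Stat3 loss it was 0.14 ± 0.17, and the difference between these 2 effects was 0.49 ± 0.25 (edgeR adjusted p = 1). Pycard overlaps Gm45205 on the opposite strand, and since the strand of the libraries is not given, reads of the pair cannot be separated.

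In active IKKβ against Control, the libraries did not overlap and were higher for 3 of the 9 tested members, Casp1, Casp4 and Gsdmd, where 9.34% of all genes showed this, and lower for 1, Pycard, against 8.21%. Combined libraries were above all Control libraries for 2 members, Casp1 and Casp4 (7.2% of all genes were higher in this way and 7.85% lower). They were above all Stat3 loss libraries for 1 member, Casp4 (6.06% higher, 6.87% lower). With both backgrounds pooled, the 6 libraries with the active allele and Cre were set against the other 6. Casp4 was again the 1 member without overlap (1.52% of all genes higher, 0.644% lower).

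Nlrp3 (chromosome 11, 59541568 to 59566956), the sensor of membrane damage and ion flux, was barely counted. Its counts were 0, 0 and 3 in Control libraries and 17, 12 and 7 in active IKKβ libraries. Stat3 loss libraries held 3, 1 and 0 counts and combined libraries 0, 0 and 7. Combined replicate 3, at 0.366 CPM, overlapped the active IKKβ range of 0.301 to 0.804 CPM, and all remaining libraries lay below it.

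Scaled to library size, the Nlrp3 counts with active IKKβ (36 in all) were 11.7 times those of Control (3 in all), with a 95% counting interval of 3.69 to 59.2. They were 4.45 times those of the combined group (7 in all; 1.95 to 11.8) and 8.75 times those of Stat3 loss (4 in all; 3.14 to 33.8). These intervals cover counting error only and say nothing of the spread between libraries. Dendritic and pan-leukocyte markers were also at their highest in the active IKKβ libraries, and their part in the Nlrp3 counts was not tested.

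Aim2 (chromosome 1, 173350879 to 173466040), the sensor of cytosolic DNA, was low as well, with 5 to 36 counts per library. It measured 0.336, 1.31 and 0.229 CPM in Control libraries and 1.70, 0.822 and 1.118 in active IKKβ libraries, with 0.541, 0.264 and 0.273 under Stat3 loss and 0.250, 0.871 and 0.314 for combined libraries. Control replicate 2 lay among the active IKKβ libraries. The averaged effects were 0.68 ± 0.50 for active IKKβ (edgeR adjusted p = 0.563) and -1.055 ± 0.50 for Stat3 loss (edgeR adjusted p = 0.417), neither of them called. Mean log2 CPM of pan-leukocyte markers correlated with Aim2 at 0.839 over the 12 libraries (0.756 within groups). For dendritic markers the correlation was 0.773 (0.808 within groups). The part of immune cells in the Aim2 values was not tested. Aim2 overlaps Cadm3 on the opposite strand.

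Casp14, Gsdma and Nlrp10 varied widely within groups. Casp14 (chromosome 10, 78711991 to 78718294) encodes the caspase that processes filaggrin in cornifying cells, Gsdma (chromosome 11, 98664351 to 98677708) a pore-forming gasdermin of skin and upper gut epithelium, and Nlrp10 (chromosome 7, 108921852 to 108930178) an NLR protein of keratinocytes that lacks the leucine-rich repeats of its relatives. Casp14 measured 78.1, 57.5 and 191.7 CPM in Control libraries and 98.5, 202 and 217.9 in active IKKβ libraries, with 106.4, 81.5 and 123.5 under Stat3 loss and 300.9, 74.1 and 155.1 for combined libraries. Gsdma measured 167.4, 116.8 and 542.8 CPM in Control libraries and 166.2, 556.1 and 526.8 in active IKKβ libraries, with 190.3, 138.2 and 346.9 under Stat3 loss and 499.1, 84.4 and 381.6 for combined libraries. Nlrp10 measured 5.93, 4.55 and 34.8 CPM in Control libraries and 4.87, 35.2 and 33.1 in active IKKβ libraries, with 6.22, 4.39 and 21.3 under Stat3 loss and 21.5, 4.24 and 21.7 for combined libraries. Every group held both low and high libraries of all 3 genes.

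These low and high libraries were the ones that differed in Krt4 and Krt13. Nlrp10 was at 4.24 to 6.22 CPM in the 6 libraries with the low keratin share and at 21.3 to 35.2 CPM in the 6 with the high share. Gsdma was at 84.4 to 190.3 against 346.9 to 556.1 CPM, Casp14 at 57.5 to 106.4 against 123.5 to 300.9 CPM, and Casp8 at 37.1 to 46.2 against 48.7 to 58.7 CPM, each without overlap. Casp1, Casp4, Pycard, Gsdmd, Nlrp3 and Aim2 overlapped between the same libraries. Overlap does not make them unrelated to the share. Within groups, their log2 CPM correlated with its log2 value at 0.79 for Casp1, -0.667 for Casp4 and 0.82 for Pycard. The values were -0.723 for Gsdmd, 0.242 for Nlrp3 and -0.712 for Aim2. The 2 sets were formed after the data were seen, so these ranges and correlations are a description without a test.

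The averaged active IKKβ effect was 0.72 ± 0.38 for Casp14 (edgeR adjusted p = 0.401), 0.55 ± 0.51 for Gsdma (edgeR adjusted p = 0.649) and 0.63 ± 0.68 for Nlrp10 (edgeR adjusted p = 0.700), none of them called. With the keratin share as a covariate, an alternative added after seeing the data, Gsdmd was called for active IKKβ against Control at 1.17 (edgeR adjusted p = 0.0284) and for combined against Stat3 loss at 1.133 (edgeR adjusted p = 0.0450). It was not called for combined against Control, at 0.92 (edgeR adjusted p = 0.0638). Casp14, Gsdma and Nlrp10 were not called in the averaged effect with this covariate either. Over the 7 alternatives other than single omitted libraries, this one among them, it ranged from 0.45 to 0.92 for Casp14. The ranges were 0.13 to 0.97 for Gsdma and 0.18 to 1.37 for Nlrp10. Gsdma has near copies in Gsdma2 and Gsdma3, among which reads may be misplaced.

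**Figure D4:**
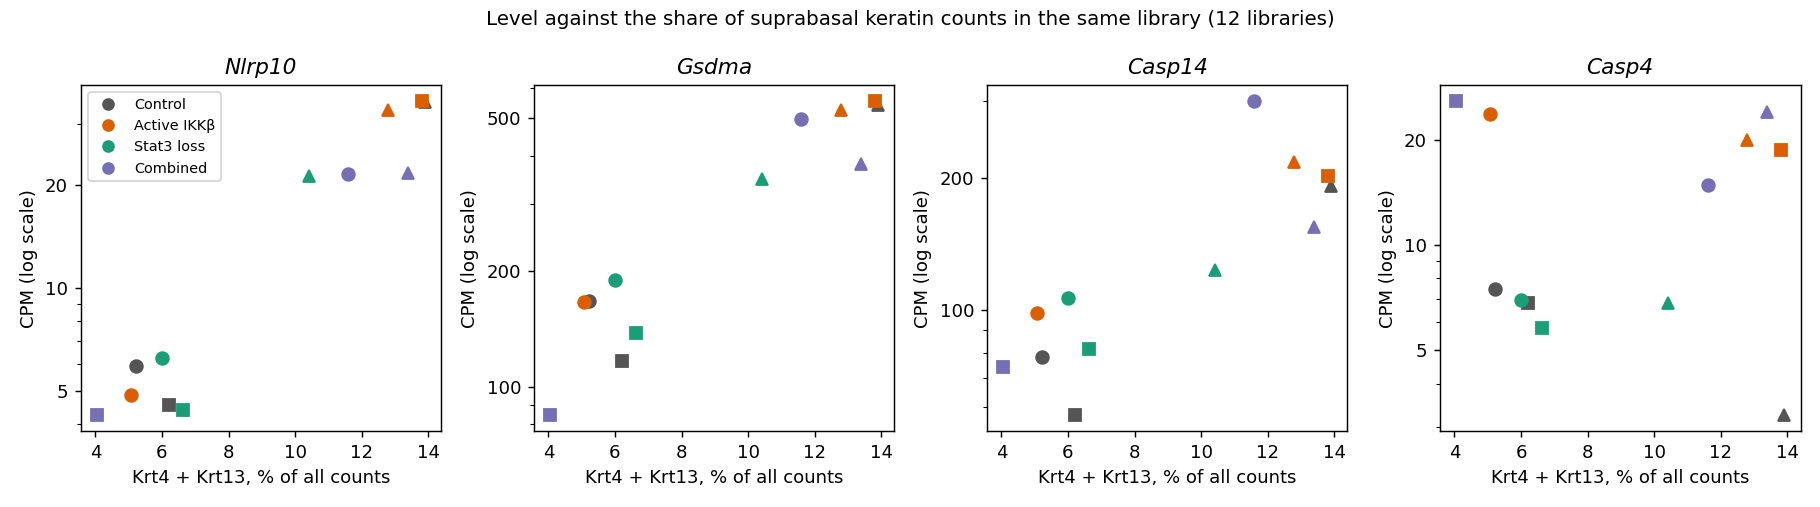
CPM of Nlrp10, Gsdma, Casp14 and Casp4 (y axes, log scale) against the share of Krt4 and Krt13 in all counts (x axis, percent) in the 12 libraries. Circles, squares and triangles are replicates 1, 2 and 3, and colours are genotype groups. Nlrp10, Gsdma and Casp14 are higher in all 6 libraries at 10.4 to 13.9% than in the 6 at 4.05 to 6.62%, and Casp4 overlaps between them.

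No member was called for Stat3 loss. Of the 9 tested members 0 were called by edgeR or DESeq2, and 0 had an unadjusted p below 0.05, in Stat3 loss against Control, in the combined group against active IKKβ or in the averaged Stat3 effect. All-gene edgeR calls were 0% higher and 0% lower in the first 2 of these and 0.0637% higher and 0.198% lower in the last. DESeq2 called 0.305% of genes higher and 0.447% lower in the first, 0.376% and 0.553% in the second, and 1.23% and 1.62% in the last. Libraries without overlap were found for 0 of 9 members in all 3, where they were higher for 6.96%, 7.12% and 0.467% of all genes and lower for 6.1%, 7.54% and 0.573%. The averaged Stat3 effect was 0.11 ± 0.21 for Casp4 (edgeR adjusted p = 0.877), -0.16 ± 0.22 for Gsdmd (edgeR adjusted p = 0.821), 0.13 ± 0.08 for Casp1 (edgeR adjusted p = 0.525) and 0.09 ± 0.12 for Pycard (edgeR adjusted p = 0.828). Within active IKKβ epithelium, adding Stat3 loss moved Casp4 by 0.05 ± 0.29 (edgeR adjusted p = 0.963) and Gsdmd by -0.14 ± 0.31 (edgeR adjusted p = 0.907). No member was called for the interaction of both changes, where edgeR called 0 of 14134 genes and DESeq2 0% higher and 0.0426% lower. These errors leave room for differences that 3 libraries per group would not resolve.

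Levels per transcript length, in counts per kilobase of transcript and M counts, ordered the members in Control as Gsdma (101.1), Pycard (96.9), Casp14 (46.7), Casp1 (41.4), Casp8 (16.7), Casp4 (4.06), Nlrp10 (3.35), Gsdmd (3.01), Aim2 (0.220) and Nlrp3 (0.00948). Neighbours whose libraries overlapped were Gsdma with Pycard, Casp14 with Casp1, and Casp4 with Nlrp10 with Gsdmd. Pycard's place depends on which transcript length is used. Casp4 stood at 14.5 with active IKKβ, where Gsdmd, its next lower neighbour, was at 6.14. The libraries of these neighbours did not overlap there, nor under Stat3 loss or in the combined group. In the combined group Casp4 stood at 15.0 and its libraries overlapped those of Casp8 at 19.7. The canonical caspase-1 gene stayed above Casp4 in every group by mean level.

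Genes around the members in the pathway were counted in 7 lists of 67 genes, 66 of them in the files and 52 tested. None was called by edgeR in any of the 8 contrasts, and for the averaged active IKKβ effect 4 had an unadjusted p below 0.05 and DESeq2 called 0. DESeq2 called 1 gene in the averaged Stat3 effect, Casp8ap2, named for its binding to caspase-8 (-0.40 ± 0.09, edgeR adjusted p = 0.139, DESeq2 adjusted p = 0.00573). It was chosen for naming after its value was seen.

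Of the caspase-1 substrates Il18 and Il1b, Il18 was not called and Il1b was not tested. Il18 is made as a precursor in epithelium, and it measured 36.2, 22.5 and 101.5 CPM in Control libraries and 35.4, 96.6 and 89.9 in active IKKβ libraries, with 33.9, 29.8 and 67.2 under Stat3 loss and 95.5, 19.9 and 53.6 for combined libraries. Its averaged active IKKβ effect was 0.42 ± 0.46 (edgeR adjusted p = 0.705). Il1a, the alarmin interleukin-1α, was at 0.38 ± 0.54 (edgeR adjusted p = 0.779). Il1b, the classical inflammasome cytokine gene, had 7 counts over the Control libraries, 18 under active IKKβ, 4 under Stat3 loss and 8 in combined libraries, too few to be tested. The 5 tested cytokine and antagonist genes were all above 0 in the averaged active IKKβ effect, with a median of 0.38 and none called. Of all genes tested, 50.13% were above 0. The list summed to 108.1 to 161.3 CPM in the libraries of low Krt4 and Krt13 share and to 277.1 to 414.2 CPM in those of high share. That share was unevenly spread over the groups, and the count above 0 and the median take no account of it.

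The 6 other caspases had a median of -0.14, and Casp12, the next gene of the Casp1 and Casp4 cluster, was at 0.01 ± 0.21 (edgeR adjusted p = 0.985). Of 17 regulators of inflammasomes 7 were above 0, with a median of -0.14. The 7 partners in death-domain signalling and necroptosis had a median of 0.10, and 3 of 8 other gasdermins and 4 of 11 other sensors were tested, with medians of 0.37 and -0.09. Of 10 tested late cornification genes 9 were above 0, with a median of 0.35. All of these medians are for the averaged active IKKβ effect, where the median of all genes was 7e-04. The late cornification genes summed to 4361 to 8784 CPM in the 6 libraries of low Krt4 and Krt13 share. In the 6 of high share they summed to 16770 to 26140 CPM. The high-share libraries were 2 active IKKβ, 2 combined, 1 Control and 1 Stat3 loss, and the cornification median takes no account of this.

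By Pearson correlation of log2 CPM over the 12 libraries, the genes outside the members most like Casp4 were D730005E14Rik (0.974), Noxo1 (0.961), which encodes an organiser of NADPH oxidase, and Tnfaip3 (0.961), which encodes the NF-κB inhibitor A20. Their averaged active IKKβ effects were 1.39 ± 0.22, 2.92 ± 0.25 and 1.51 ± 0.22. Those most like Gsdmd were Cd72 (0.961), a B cell co-receptor also found on myeloid cells, Dpep2 (0.955), a membrane dipeptidase, and 2810474O19Rik (0.948), with effects of 2.25 ± 0.37, 2.57 ± 0.46 and 0.30 ± 0.08. Casp4 and Gsdmd themselves correlated at 0.891. These likenesses are over libraries that share their genotype groups, depth and tissue makeup, and carry no test.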

How the data were processed

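The submitters' processing notes name cutadapt 1.13, STAR, HTSeq 0.6.1p1, DESeq2 and the build mm10, without roles or order. The deposited files hold whole-number counts per gene symbol, unscaled. Strand is not given in the sources used here.

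Genes were filtered with filterByExpr, scaled with TMM and fitted with edgeR 4.0.16 (quasi-likelihood, robust) in 1 model of 4 group means in R 4.3.3, with limma 3.58.1 loaded by it. The 8 contrasts were 5 differences between groups, the interaction, and the effects of active IKKβ and of Stat3 loss averaged over the other allele. CPM use TMM-scaled totals and errors are standard errors unless called SD. DESeq2 1.42.0 was an alternative, as were other scalings, no filter, a replicate block and omitted libraries. Exact permutation tests were two-sided: 3 against 3 allows no p below 0.1, and averaged effects none below 0.005. No library was a copy: chi-square over degrees of freedom was at least 26.1 in all pairs. The fit was tested on simulated data.

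Members and gene lists were chosen with earlier results of these data known. All members were named. Pathway genes were named where called, with Il1a, Il1b and Il18 always, and 3 genes by correlation for each called member. Casp12 and Casp8ap2 were named after their values were seen. Positions and lengths are from GENCODE M21, promoters from RefSeq.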

Additional observations from a re-analysis of the deposited data

How the results depend on the processing

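The averaged Casp4 rise held under all 19 alternatives. At library totals without TMM, 0 members were called in active IKKβ against Control, combined against Control and combined against Stat3 loss, and 1 in the averaged active IKKβ effect, with 66, 53, 29 and 217 genes called instead of 135, 125, 65 and 384, and 0 instead of 37 in the averaged Stat3 effect. Without both gastric-rich libraries the members called were 0 in active IKKβ against Control and in combined against Stat3 loss and 1 in the averaged effect, with 83, 28 and, for Stat3, 23 genes; Gsdmd then stood at 0.012 in Stat3 loss against Control and -0.092 in the interaction, Casp4 at 0.0029 in the interaction, and Pycard at 0.039 and -0.048 in the averaged IKKβ and Stat3 effects, all opposite in sign. These alternatives differ in scaling or have fewer samples, and the cause was not tested further. With the keratin share as a covariate, 2 members were called in active IKKβ against Control and in combined against Stat3 loss, all-gene counts were 399, 432, 32, 218, 873 and 324 (active IKKβ, combined against Control, against active IKKβ, against Stat3 loss, averaged IKKβ, averaged Stat3), and Casp4 against active IKKβ was at -0.0032 and the Gsdmd interaction at -0.035.

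DESeq2 called 442, 106, 476, 131, 297, 6, 860 and 402 genes in the 8 contrasts and the same number of members as edgeR. Same-numbered libraries correlated at -0.408 to 0.454 in their deviations, over 0.1 in only 9 of 18 pairs, so the numbers were not taken to pair the samples; as a hint to the contrary, 8 of 12 libraries correlated best with their own number, and replicate 1 shared high Xist. With the replicate block, 0 members were called in combined against Stat3 loss, where Casp4 was at 1.73 (edgeR adjusted p = 0.0683), and 0 genes in the averaged Stat3 effect.

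Leaving out 1 library gave 0 to 1 members in active IKKβ against Control (42 to 145 genes), 0 to 1 in combined against Control (43 to 147), 0 to 1 in combined against Stat3 loss (20 to 81) and 1 to 2 in the averaged active IKKβ effect (184 to 444); the averaged Stat3 effect had 0 to 52 genes, and Stat3 loss against Control and combined against active IKKβ 0 to 1. Uncalled values that changed sign ranged from -0.032 to 0.22 (Casp4, averaged Stat3), -0.13 to 0.38 (Casp4, Stat3 loss against Control), -0.10 to 0.28 and -0.46 to 0.14 (Casp4 and Gsdmd, combined against active IKKβ), -0.33 to 0.19 and -0.27 to 0.34 (their interactions), -1.11 to 0.755 and -0.089 to 0.10 (Aim2 and Pycard, combined against Control) and -0.35 to 0.81 (Aim2, combined against Stat3 loss). Depth limits Nlrp3 and Aim2 most.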
